A study of Mus musculus with 8 samples.

Results

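The precursor genes of 10 neuropeptides, Oxt, Avp, Crh, Trh, Npy, Sst, Vip, Cck, Penk and Tac1, were followed in the mouse olfactory bulb after exposure to diesel exhaust (DE). The members were the noncontrol probes that carried 1 of these gene symbols in the scanner files, and each gene had 1 probe, so that 10 of the 55681 noncontrol probes and 10 of the 34797 gene names on the array were members. These 10 probes filled 19 spots, since Sst was printed at 10 spots and every other member at 1. The set was chosen by the log2 fold changes of Oxt between the RNA pools on these same arrays, joined by other precursors of the bulb, so the differences of Oxt are given as a description and no test was made on them.

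All animals were male C57BL/6J mice, 56 days old when the bulbs were taken. They were reared from before birth in a standard cage (C) or with environmental enrichment (EE), a roomier cage fitted with a wheel, a shelter, blocks and tubes. They were then kept for 28 days in a chamber of clean air (C) or of DE at 90 µg/m3 for 8 hours/day, with the same type of housing as before. The pool names give rearing first and chamber second. Equal amounts of RNA from different cages were combined into 1 pool per group, taken from 7 mice for C-C, from 7 for C-DE, from 8 for EE-C and from 9 for EE-DE, and each pool was hybridised to 2 single-colour Agilent arrays. The 2 arrays of a pool are technical duplicates. They show the error of the measurement and nothing of the variation among mice, and no p-value is given for any comparison.

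A neuropeptide is made as a longer precursor that is cut by convertases, trimmed, and often amidated inside secretory granules before it is released to act on G protein-coupled receptors. The bulb makes several of these peptides in its own neurons, such as interneurons of the glomerular, external plexiform and granule cell layers and tufted cells. The cell bodies that make most of the brain's oxytocin and vasopressin lie in the hypothalamus, while the bulb carries receptors for both peptides, which take part in social odour recognition.

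Oxt and Avp stand next to each other on chromosome 2 in opposite orientation, with no other gene between them in the RefSeq annotation of GRCm38.p6. They are shown by their upstream sequence because these were the members with the widest spread over the 8 arrays. Each line below gives the 250 bases before the RefSeq start, 5′ to 3′ on the strand of the gene, for Oxt chr2:130575919-130576168 on the plus strand and for Avp chr2:130582589-130582838 on the minus strand. Capitals mark the composite nuclear receptor element TGACCTTGA in Oxt and the E-box CACGTG in Avp.
Oxt upstream: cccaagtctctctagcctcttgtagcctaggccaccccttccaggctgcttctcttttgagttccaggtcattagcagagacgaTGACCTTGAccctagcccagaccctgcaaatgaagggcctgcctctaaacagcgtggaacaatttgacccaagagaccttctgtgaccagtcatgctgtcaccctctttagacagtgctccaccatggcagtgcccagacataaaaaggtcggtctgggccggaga
Avp upstream: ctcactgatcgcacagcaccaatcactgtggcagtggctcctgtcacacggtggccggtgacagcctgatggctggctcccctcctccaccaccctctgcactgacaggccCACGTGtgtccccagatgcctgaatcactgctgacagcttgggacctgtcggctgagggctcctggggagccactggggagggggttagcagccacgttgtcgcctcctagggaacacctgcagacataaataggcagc
The element in the Oxt sequence began at position 85 of the window, and these letters were found on either strand in 0.423% of 32851 RefSeq promoters, taken from 250 bases before to 50 bases after the start. The half-site AGGTCA, whose reverse complement overlaps that element, stood in the Oxt and Trh windows and in 16.3% of promoters. The E-box began at position 112 of the Avp window, stood also in the Cck and Tac1 windows, and was present in 7.15% of promoters. The cyclic AMP response element TGACGTCA was present in the Sst window and in 1.79% of promoters. Promoters were given for 8 of the 10 members, all but Penk and Crh, and the matches are descriptions of letters and no evidence of binding.

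The array read the 2 neighbours with separate 60-base probes, which had no run of more than 6 letters in common on either strand. The Oxt probe lies at chr2:130402665-130402724 on the plus strand of mm9, the build of the scanner files. The Avp probe lies on the minus strand at chr2:130406552-130406817 and is shown because its 60 bases cover 266 bases of the genome, so that it crosses an exon junction and reads spliced RNA.
Avp probe: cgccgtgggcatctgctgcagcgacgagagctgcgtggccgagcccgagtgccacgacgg
All 10 member accessions were listed under the same symbol in the RefSeq table.

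The signal of Oxt, the precursor of oxytocin, was highest on both arrays of the C-C pool. The processed Cy3 intensity, in scanner units after background subtraction, was 126 and 66.7 on the C-C arrays, 38.6 and 38.6 on the C-DE arrays, 39.1 and 37.4 on the EE-C arrays and 48.5 and 45.3 on the EE-DE arrays. Relative to the 75th percentile of the same array, on a log2 scale, these were levels of -2.37 and -3.40 in C-C, -4.06 and -4.10 in C-DE, -4.07 and -4.21 in EE-C, and -3.88 and -3.90 in EE-DE. The 2 C-C arrays lay above the other 6 and did not overlap with any other pool. The EE-DE arrays came next, and C-DE and EE-C overlapped. Oxt was dim and was not among the brighter 75% of the probes tested. On the first EE-DE array it read 48.5, where the lowest spot well above background read 27.4.

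The C-C duplicates also differed from each other more than any other pair. On the scaled level the first read 2.05-fold above the second, a difference of 1.03 (log2) between portions of 1 RNA pool, while the duplicates of the other 3 pools differed by 0.01 to 0.14. Of the 21706 probes with an accession that were well above background on all 8 arrays, 178 (0.820%) lay at least 1.5-fold apart on the C-C arrays, and Oxt was 1 of them. The spots themselves were even: the mean and the median of the pixels were 169 and 169 on the first C-C array and 102 and 102 on the second, no array gave the spot an outlier flag, and the 64 spots around it differed by a median of -0.05 (log2) between the first and the second array. On the first EE-DE array, whose background was raised, the mean pixel before background subtraction was 124. It was 78.4 on its duplicate and 102 on the second C-C array, so the order of these arrays depends on the subtraction. After background subtraction and scaling to the 75th percentile, the 2 EE-DE arrays differed by 0.01 (log2).

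Oxt was 2.29-fold lower in C-DE than in C-C, a mean log2 difference of -1.19 that ranged from -1.73 to -0.66 over the 4 pairings of a C-DE with a C-C array. It was 2.39-fold lower in EE-C than in C-C (-1.26, from -1.84 to -0.67). In EE-DE it was 2.00-fold lower than in C-C (-1.003), and here the pairings ran from -1.53 to -0.48, so that 2 of the 4 were short of 1.5-fold (0.585 on the log2 scale), the threshold used for a call. These 3 comparisons share the C-C arrays, and without the first C-C array they came to -0.68, -0.74 and -0.49. With normexp background correction they were -0.64, -0.69 and -0.56, so that the call for EE-DE/C-C was lost in both settings. In bulk tissue, fewer cells of a type and less RNA per cell cannot be told apart.

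Away from the C-C pool, the values of Oxt were close together. EE-DE was 1.19-fold above EE-C (0.25, from 0.17 to 0.33) and 1.14-fold above C-DE (0.19, from 0.16 to 0.22), with no overlap of the arrays and neither past 1.5-fold. Arrays did not overlap for 34.2% and 42.2% of all probes tested in these comparisons. With normexp the differences of Oxt came to 0.13 and 0.08. The change with DE was therefore of opposite sign in the 2 rearing conditions, and the difference between the 2 log2 changes was 1.45, or 0.77 with normexp and 0.93 without the first C-C array. Past 1.5-fold in the same contrast of changes were 1.48% of all probes tested. On the slide, all arrays of standard cages lay in 1 column and all arrays of enrichment in the other, so rearing and slide column cannot be told apart. The clean air arrays lay in rows 1 and 2 and the DE arrays in rows 3 and 4, so chamber and slide row cannot be told apart either.

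Avp, the precursor of vasopressin and its neurophysin, was near the limit of detection. Its intensity was 63.2 and 21.5 in C-C, 9.59 and 19.3 in C-DE, 13.6 and 14.7 in EE-C, and 11.8 and 24.9 in EE-DE, and the first C-DE and the first EE-DE array were not well above background. The first C-C array was again the highest and, after scaling to the 75th percentile, read 3.18-fold above its duplicate. The second C-C array lay below the second EE-DE array.

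On the log2 scale relative to the 75th percentile, Avp read -3.37 and -5.03 in C-C, -6.07 and -5.10 in C-DE, -5.59 and -5.56 in EE-C, and -5.93 and -4.76 in EE-DE. The mean difference was -1.38 for C-DE/C-C, and its pairings spanned -2.70 to -0.06. For EE-C/C-C it was -1.38 with pairings from -2.22 to -0.53, and for EE-DE/C-C it was -1.14 with pairings from -2.56 to 0.28. With normexp background correction these came to -0.40, -0.39 and -0.20, and without the first C-C array to -0.55, -0.54 and -0.31, so the sizes are not firm. Because it was above background on 6 of the 8 arrays only, Avp was not among the probes tested and was not counted as called. Its duplicates differed by 0.97 in C-DE and by 1.17 in EE-DE, so the order of the pools was not resolved.

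**Figure D1:**
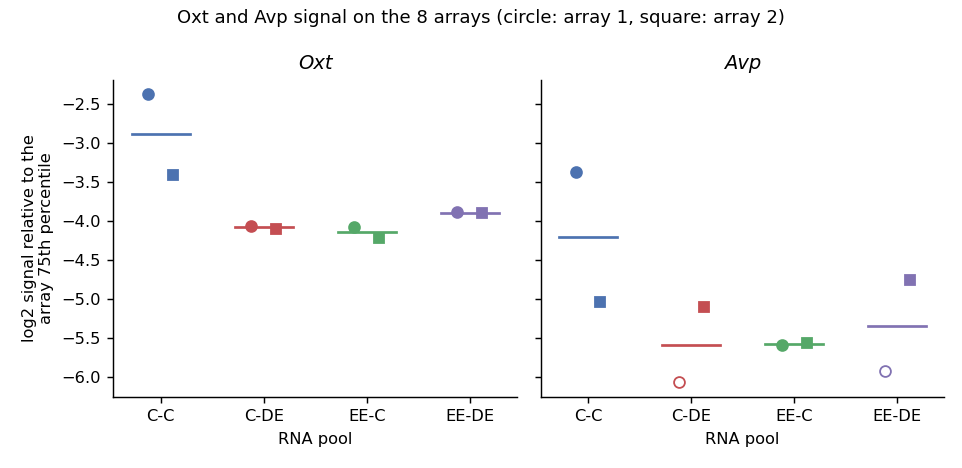
Signal of Oxt (left) and Avp (right) on each of the 8 arrays, as log2 of the processed intensity relative to the 75th percentile of the array (vertical axis), by RNA pool (horizontal axis). Circles are the first and squares the second array of a pool, horizontal lines their mean, and open symbols arrays on which the spot was not well above background. Oxt ran from -2.37 on the first C-C array to -4.21 on the second EE-C array, and both genes were highest on the first C-C array.

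Of the 10 members, 9 passed the filter on signal. Of these 9, Oxt was called in C-DE/C-C, where 0.576% of all probes tested were called in either direction, in EE-C/C-C (background 0.825%) and in EE-DE/C-C (background 0.815%). No member was called in EE-DE/EE-C (background 0.944%) or EE-DE/C-DE (background 0.636%). The other 8 members gave 40 log2 differences over the 5 comparisons, from -0.20 for Crh in EE-DE/C-DE to 0.29 for Sst in EE-DE/C-C, which is 1.23-fold at most. The median over the 9 members was -0.02 for C-DE/C-C, 0.03 for EE-DE/EE-C, 0.03 for both EE-C/C-C and EE-DE/C-C, and 0.12 for EE-DE/C-DE, beside medians over all probes tested between -0.01 and 0.01.

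Arrays of the 2 pools did not overlap for 5 of the 9 members in C-DE/C-C, against 40.9% of all probes tested, and for 5 in EE-DE/EE-C, against 34.2%. The counts were 1 in EE-C/C-C (background 37.7%), 6 in EE-DE/C-DE (42.2%) and 4 in EE-DE/C-C (47.1%). With 2 technical arrays against 2, a separation of this kind was common on the array, and in EE-C/C-C Oxt was the 1 member that separated.

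**Figure D2:**
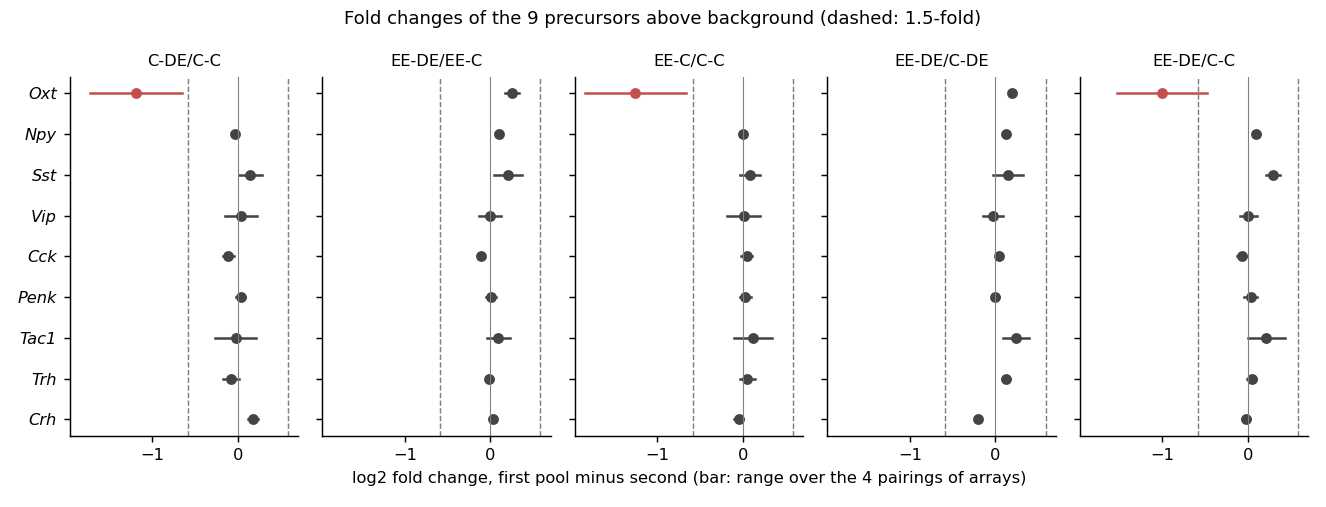
Log2 fold change of the 9 members above background on all arrays (rows) in the 5 comparisons (panels), first pool minus second. Points are means of 2 arrays against 2, bars the range over the 4 pairings, dashed lines 1.5-fold, and red marks a call. Oxt stands at -1.19, -1.26 and -1.003 in the 3 comparisons against C-C, and every other point lies between -0.20 and 0.29.

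Of the other peptides known chiefly as hypothalamic releasing factors, Crh and Trh were well above background throughout. Crh, corticotropin-releasing hormone, is made in the bulb by interneurons of the external plexiform layer. It read 1.98 and 1.89 (log2 level) in C-C, 2.10 and 2.12 in C-DE, 1.89 and 1.88 in EE-C, and 1.91 and 1.91 in EE-DE. Both C-DE arrays were above the other 6, by 0.18 (1.13-fold, from 0.12 to 0.24) against C-C, and EE-DE was 0.20 below C-DE (from -0.21 to -0.19). Among the 8 members other than Oxt, Crh had both the highest difference in C-DE/C-C and the lowest in EE-DE/C-DE. Trh, thyrotropin-releasing hormone, ranged from 4.02 to 4.23, and the one comparison without overlap was EE-DE/C-DE, at 0.12.

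Npy, neuropeptide Y of short-axon and other inhibitory cells, was nearly flat. Its log2 level was 3.85 and 3.81 in C-C, 3.80 and 3.80 in C-DE, 3.82 and 3.84 in EE-C, and 3.94 and 3.91 in EE-DE. The EE-DE arrays lay above all others, by 0.13 (1.09-fold) against C-DE and 0.10 (1.07-fold) against EE-C, whereas C-DE lay 0.03 below C-C, a sign that turned with normexp background correction (0.02).

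Sst, somatostatin of inhibitory interneurons, read 0.66 and 0.69 in C-C, 0.94 and 0.71 in C-DE, 0.86 and 0.66 in EE-C, and 1.03 and 0.91 in EE-DE, as means of the 8 of its 10 spots that carried no outlier flag. It was 1.23-fold higher in EE-DE than in C-C (0.29, from 0.21 to 0.37), the widest difference of the 8 members, and 1.16-fold higher in EE-DE than in EE-C (0.21, from 0.05 to 0.37). The duplicates of C-DE and EE-C differed by 0.23 and 0.20, and C-DE and EE-C overlapped.

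Tac1, the precursor of substance P and neurokinin A, read 0.70 and 1.00 in C-C, 0.92 and 0.74 in C-DE, 1.04 and 0.90 in EE-C, and 1.13 and 1.00 in EE-DE. It was 1.18-fold higher in EE-DE than in C-DE (0.24, from 0.08 to 0.39). The C-C duplicates of Tac1 lay 0.30 apart, with the first array the lower, the opposite of their order for Oxt and Avp.

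The other 3 precursors also stayed within narrow ranges. Cck, cholecystokinin, a peptide of tufted cells, ranged from 6.49 to 6.67 and was lower after DE in both rearing conditions, by -0.11 (1.08-fold) under standard rearing and by -0.11 (1.08-fold) under enrichment. Penk, the enkephalin precursor of granule and periglomerular cells, ranged from 5.39 to 5.50, and no pair of pools was free of overlap. Vip, vasoactive intestinal peptide of bulb interneurons, ranged from 0.63 to 0.87 and likewise overlapped in all 5 comparisons.

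**Figure D3:**
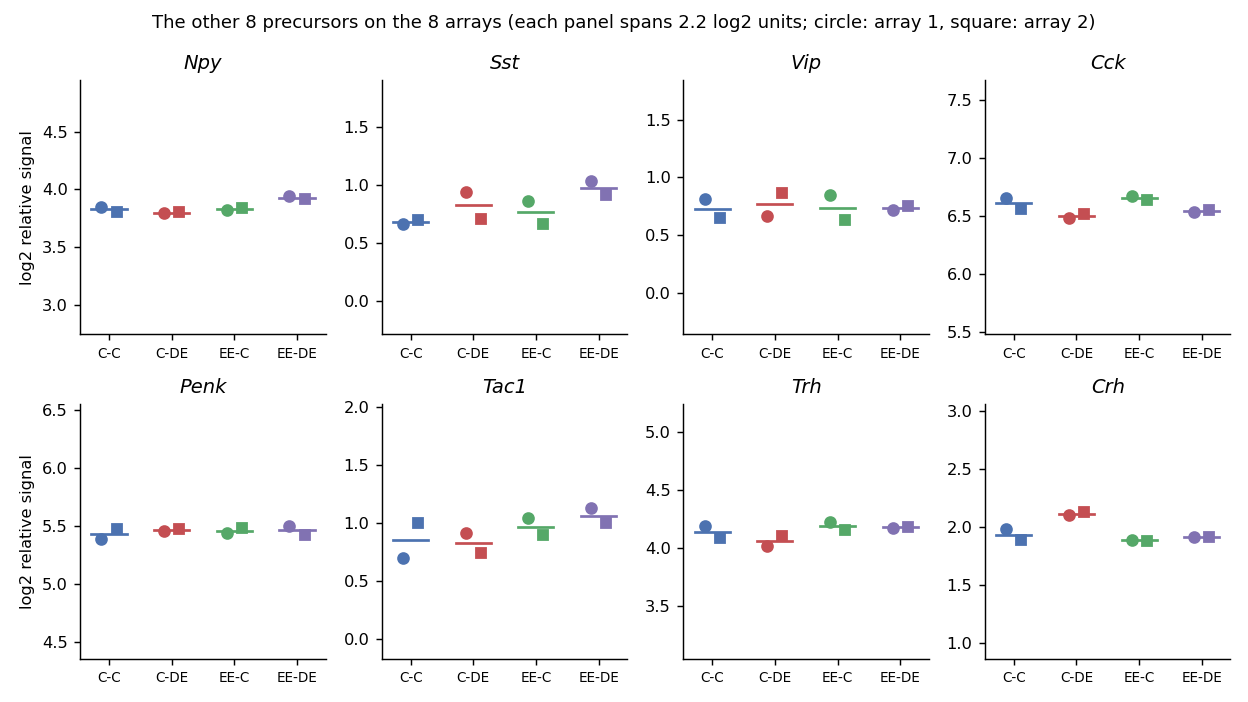
Log2 signal relative to the 75th percentile of the array (vertical axis, 2.2 units in each panel) of the 8 other members on the 8 arrays, by RNA pool. Circles are the first and squares the second array of a pool, and lines their mean. In these panels no pool stands apart as C-C does for Oxt, and the widest difference between pool means is that of Sst, 0.29 between EE-DE and C-C.

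The receptors of the 10 peptides were described next, of which 20 of 29 passed the filters on signal, accession and outlier flags. None of the 20 was past 1.5-fold in any of the 5 comparisons with both arrays of each pool, and their median differences lay between -0.05 and 0.01. Oxtr, the oxytocin receptor, had log2 levels of -0.77 and -0.63 in C-C, -0.65 and -0.74 in C-DE, -0.58 and -0.65 in EE-C, and -0.66 and -0.70 in EE-DE. All pools overlapped with at least 1 other, and its differences ran from -0.07 to 0.09. Crhr1, the main receptor of corticotropin-releasing hormone, ranged from 2.97 to 3.16.

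Of the vasopressin receptors, Avpr1a was above background on 6 arrays and ranged from -6.13 to -4.45, while Avpr1b and Avpr2 were not well above background on any array, nor was the cholecystokinin receptor Cckar. The widest receptor differences, named after their values were seen, were 0.38 for Npy5r in EE-DE/C-C, where the first EE-DE array read -1.66 and the other 7 between -2.50 and -2.23, and -0.29 for the somatostatin receptor Sstr4 in EE-DE/EE-C. Without the second EE-DE array, Npy5r was past 1.5-fold in each of the 3 comparisons of EE-DE, which gives a count of 1 receptor in each.

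All 19 genes of precursor processing and granule content were above background and 0 were past 1.5-fold, with medians between -0.03 and 0.0041. Pcsk5, a proprotein convertase, had the widest difference among them (chosen after its values were seen), with -2.19 and -2.17 in C-C, -2.38 and -2.43 in C-DE, -2.004 and -1.96 in EE-C, and -2.28 and -2.24 in EE-DE. It was lower with DE in both rearing conditions, by -0.23 and -0.28. All 12 peptidases and binding proteins that clear peptides were also above background and 0 were past 1.5-fold, and their widest difference was 0.31 for Ace, angiotensin-converting enzyme, in C-DE/C-C. Lnpep, the aminopeptidase that degrades oxytocin and vasopressin, ranged from -1.58 to -1.35.

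Of 42 other neuropeptide and peptide hormone precursors, 24 passed the filters and 0 were past 1.5-fold. Their medians lay between -0.02 and 0.04 and their widest difference was 0.29 for the natriuretic peptide Nppc in EE-DE/C-DE. The pairings of Nppc ran from -0.004 to 0.576, since its C-DE duplicates read -3.16 and -3.56. Over the receptor, processing, clearance and precursor lists together, the 375 differences of 75 genes ran from -0.29 to 0.38.

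Genes of other cell types were read beside the difference of Oxt. Of 10 hypothalamic marker genes, 5 passed the filters, and Sim1, Otp and Nkx2-1, transcription factors of the developing and adult hypothalamus, were not well above background on any array. The summed level of the 5, in multiples of the 75th percentile of the array, was 2.24 and 1.95 in C-C, 1.86 and 2.15 in C-DE, 1.97 and 2.28 in EE-C, and 1.93 and 2.18 in EE-DE. Peg3 made up 64.9% to 73.0% of this sum, and the other 4 together came to 0.653 and 0.590, 0.551 and 0.631, 0.693 and 0.615, and 0.647 and 0.667 in the same order. The C-C arrays overlapped with those of the other pools in the sum of the 5, and none of the 5 was past 1.5-fold.

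Markers of the bulb itself were present, with 8 of 8 for projection neurons and 12 of 13 for interneurons passing the filters, and none past 1.5-fold in any comparison. The summed level of the projection neuron markers was 51.6 to 51.9 in C-C, 52.8 to 53.1 in C-DE, 52.1 to 53.0 in EE-C and 51.7 to 52.1 in EE-DE. That of the interneuron markers was 428 to 437 in C-C, 432 to 434 in C-DE, 428 to 428 in EE-C and 408 to 414 in EE-DE.

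Genes of the olfactory mucosa, the nasal tissue next to the bulb, did differ between pools. Of the 13 of 14 that passed the filters, 8 were past 1.5-fold lower in C-DE than in C-C (median -1.08) and 3 were lower in EE-C than in C-C (median -0.19), while 6 were higher in EE-DE than in EE-C (median 0.58), 8 higher in EE-DE than in C-DE (median 1.59) and 2 higher in EE-DE than in C-C (median 0.33). The duplicates of EE-C lay far apart for these genes, Cyp2g1 reading 1.27 and -0.79, and without the second EE-C array 0 were past 1.5-fold for EE-DE/EE-C and 0 for EE-C/C-C. The count for EE-C/C-C was also 0 without the first C-C array, that for EE-DE/EE-C was 3 without the second EE-DE array, and that for EE-DE/C-C was 0 without the second EE-DE or the second C-C array. The median for C-DE/C-C was -0.67 without the first C-C array, and that for EE-DE/EE-C was 0.06 without the second EE-C array. For EE-C/C-C it was -0.82 without the first EE-C array and 0.09 without the second. Over all arrays left out in turn, the counts were 8 to 9 for C-DE/C-C and 8 to 9 for EE-DE/C-DE, but 0 to 8 for each of the other 3 comparisons. Their summed level was 89.0 and 73.6 in C-C, 65.8 and 75.1 in C-DE, 86.5 and 75.4 in EE-C, and 83.2 and 91.7 in EE-DE, but 76.8% to 86.1% of it was Omp, the marker of mature olfactory sensory neurons, which was not past 1.5-fold. Without Omp it was 18.0 and 13.2 in C-C, 9.85 and 10.71 in C-DE, 16.9 and 10.48 in EE-C, and 15.7 and 21.3 in EE-DE, so that C-DE overlapped with EE-C. The part of these genes in the values of Oxt was not tested. Of 7 pituitary genes, 4 passed the filters, and Prl was past 1.5-fold lower in EE-C/C-C (-1.89), EE-DE/C-DE (-1.12) and EE-DE/C-C (-1.35), while Pou1f1 was past it higher in EE-DE/C-DE (0.67) and EE-DE/C-C (0.61). The Prl difference in EE-C/C-C was -0.61 without the second EE-C array, and without the second EE-DE array those of EE-DE/C-DE and EE-DE/C-C were -0.61 and -0.84. Both Pou1f1 calls were lost with 1 array left out, at 0.57 without the first EE-DE and 0.55 without the first C-DE array in EE-DE/C-DE, and at 0.51 without the first EE-DE and 0.52 without the first C-C array in EE-DE/C-C. Their part in the values of Oxt was likewise not tested. The 4 had a summed level of 1.05 to 1.42 in C-C, 1.19 to 1.46 in C-DE, 0.950 to 1.12 in EE-C and 1.14 to 1.20 in EE-DE, of which 77.75% to 87.8% was Pomc, the precursor of corticotropin and other peptides. Without Pomc the sum was 0.213 and 0.315 in C-C, 0.226 and 0.264 in C-DE, 0.224 and 0.116 in EE-C, and 0.212 and 0.167 in EE-DE.

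**Figure D4:**
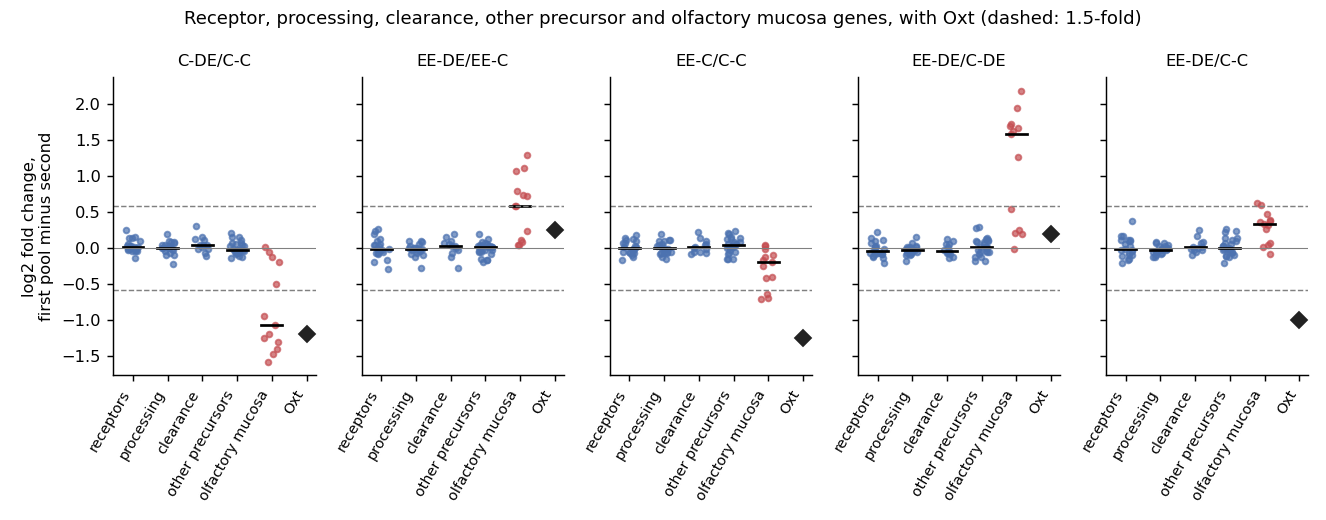
Log2 fold change (vertical axis, first pool minus second) of each gene of the receptor, processing, clearance, other precursor and olfactory mucosa lists that passed the filters, in the 5 comparisons (panels), with Oxt as a diamond. Black lines are medians and dashed lines 1.5-fold. The 375 differences of the first 4 lists lie between -0.29 and 0.38, the mucosa genes reach a median of 1.59 in EE-DE/C-DE, and Oxt lies at -1.19 in C-DE/C-C.

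The genes with a pattern most like that of Oxt were found by the root mean square difference of log2 values, each centred on its mean over the 8 arrays, 4 pools in duplicate on 1 slide. With the closest probe standing for each gene, the 5 closest were Ttc9 (0.24), which encodes a tetratricopeptide repeat protein, Gm10336 (0.26), Fermt3 (0.26), which encodes an integrin-binding kindlin of blood cells, Sdad1 (0.27) and Nr1i3 (0.31), which encodes the nuclear receptor CAR. For comparison, the root mean square of the centred values of Oxt itself was 0.57. None of the 5 is a neuropeptide gene. The members were left out of this ranking, which covered only probes that passed the filters. Avp, the other members and any precursor that failed the filters therefore could not appear, and their absence from the 5 carries no information.

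The 5 fell into different patterns when read array by array. Ttc9 was at -0.44 on the first C-C array and between -1.87 and -1.79 on all 7 others. Fermt3 was likewise at -1.92 on that array and between -3.66 and -3.19 elsewhere. Their likeness to Oxt rested on the first C-C array, and without it their difference between C-DE and C-C was 0.05 for Ttc9 and 0.0038 for Fermt3, where that of Oxt was -0.68. Gm10336 was at -1.52 on the first C-C array and between -2.76 and -2.52 on the others.

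Sdad1 and Nr1i3 were high on both C-C arrays, as Oxt was, and such likeness is what the search picked genes for. Sdad1 read 0.21 and -0.42 in C-C and between -1.32 and -0.67 in the other pools, with C-DE 1.14 below C-C. The brighter of the 2 Sdad1 probes, at a mean log2 level of 1.75 against -0.85, gave -0.11 for the same comparison, so the probes disagree. The place of Sdad1 among the 5 rests on the dimmer probe: with the brightest probe of each gene its difference from Oxt was 0.54, and Pinx1 (0.32) took the fifth place. Nr1i3 read -0.77 and -1.08 in C-C and between -2.33 and -1.63 elsewhere, and was lower than C-C in C-DE (-0.97), EE-C (-0.96) and EE-DE (-1.11). The study's RT-PCR of single samples found Nr1i3 lower in C-DE than in both C-C and EE-C. On the arrays, by contrast, EE-C lay near C-DE.

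**Figure D5:**
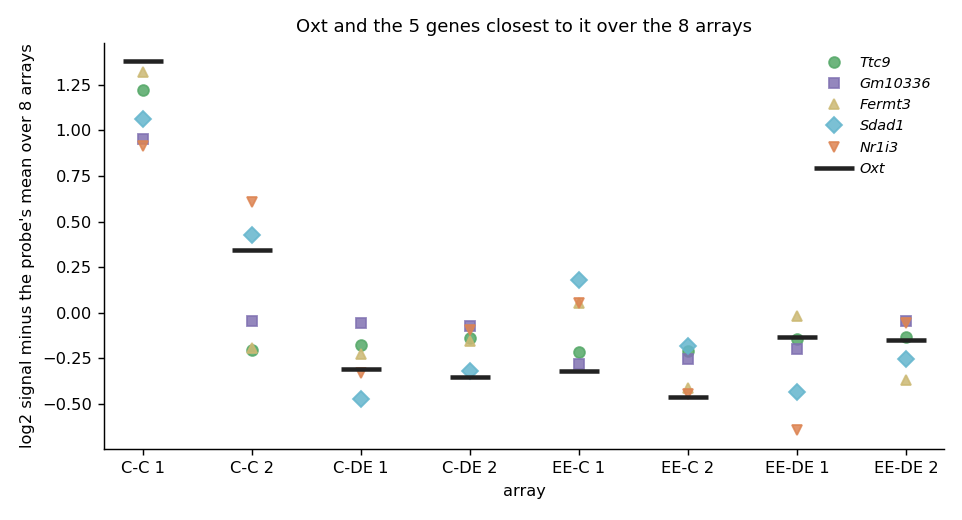
Log2 signal of Oxt (black bars) and of the 5 genes closest to it (symbols), each minus its mean over the 8 arrays (vertical axis), by array (horizontal axis). On the first C-C array all 6 genes are at their highest, and on the second C-C array Ttc9, Gm10336 and Fermt3 lie with the other pools while Oxt, Sdad1 and Nr1i3 lie above them.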

How the data were processed

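The members and gene lists were chosen with earlier results of these data known. The authors deposited intensity values (gProcessedSignal) from Agilent Feature Extraction 10.7.3.1 (version from the submitters' processing notes), with background subtracted and spatial trends removed per the file headers, and without scaling between arrays. The log2 series table was also deposited by the authors; set against the intensities, it follows log2 signal minus the 75th percentile of the array, centred on the median of each probe (within 0.02 for 99.4% of 21706 probes; column medians -0.01 to 0.02), and it served as an alternative. Arrays of 4 pools in duplicate were assigned from the sample titles.

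Here, log2 processed signal minus the array's 75th percentile over noncontrol spots was used. Of 59305 noncontrol spots, those named by an accession of GenBank or RefSeq, well above background on all 8 arrays and without outlier flags were kept and averaged by probe, leaving 21706 probes. Duplicates were averaged, and 1.5-fold was called. Genes named are the members, the 5 closest to Oxt, Oxtr, Avpr1a and Crhr1, list genes past 1.5-fold, and marker genes needed to give levels; Npy5r, Sstr4, Avpr1b, Avpr2, Cckar, Pcsk5, Ace, Lnpep, Nppc, Pyy, Ppy, Npy4r and Pinx1 were added after their values were seen; for a list gene with several probes the brightest was used, and in the search for genes like Oxt the closest. The calling code was run on simulated data with normal noise at the median duplicate spread of probes of like level. Such data hold neither wide duplicate gaps, as for Oxt in C-C, nor variation among pools, so they do not bear on these. Alternatives were another normalization (quantile, median, normexp with offset 50), filter, averaging, threshold, and leaving out each array. Python 3.11.15, numpy 2.4.6, pandas 2.3.3, matplotlib 3.10.9, R 4.3.3 and limma 3.58.1 were used.

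The first EE-DE array had 56.7% of its noncontrol spots well above background, at a median background of 29, and the other 7 had 68.0% to 70.6%, at 21 to 24. No spot of the members was saturated. The number of arrays, 2 of each pool, limits the precision.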

Additional observations from a re-analysis of the deposited data

Results flagged for a closer look

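Oxt moved in opposite directions with DE in the 2 rearing conditions: all 4 pairings were lower in C-DE than in C-C (-1.19) and all 4 higher in EE-DE than in EE-C (0.25, short of 1.5-fold). Arrays did not overlap for 40.9% of all probes tested in C-DE/C-C and for 34.2% in EE-DE/EE-C. The share that separated in opposite directions was not computed. For Oxt the difference of the 2 log2 changes was 1.45. The same 8 values give the same 1.45 for the change with rearing, which was -1.26 under clean air and 0.19 under DE. Without the first C-C array it was 0.93, and with normexp background correction 0.77. Npy also moved in opposite directions with DE, -0.03 in standard cages and 0.10 in enrichment, a difference of 0.13, but with normexp background correction its change in standard cages was 0.02, so that both changes were upward. These differences were not tested, because each group was 1 pool. No pool had enough arrays for a check of single arrays far from the rest.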

How the results depend on the processing

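The count of called members was 1 in C-DE/C-C, 1 in EE-C/C-C and 1 in EE-DE/C-C, and it was 2 in each of these with the looser signal flag and with no signal filter, which admit Avp, and 0 in each among the brighter 75% of probes, which leaves out Oxt. In EE-DE/C-C it was also 0 with normexp and when 1.5-fold was required in all 4 pairings. Leaving out an array gave a count of 1 to 1 for C-DE/C-C as for EE-C/C-C, 0 to 1 for EE-DE/C-C (0 without the first C-C array), and 0 to 0 for the other 2 comparisons. Over the other settings the difference of Oxt ran from -1.28 to -0.64 for C-DE/C-C, from -1.34 to -0.69 in EE-C/C-C and from -1.09 to -0.56 in EE-DE/C-C, and leaving out an array moved them from -1.71 to -0.68, from -1.77 to -0.74 and from -1.52 to -0.49. The 8 other members stayed between -0.22 and 0.36 in all settings. With single arrays left out, Ttc9 ran from -1.38 to 0.049 for C-DE/C-C and from -1.36 to 0.069 for EE-DE/C-C, and Fermt3 from -1.51 to 0.0038 for C-DE/C-C and from -1.50 to 0.014 for EE-C/C-C, the upper end in each case without the first C-C array. Without that array Fermt3 was also 0.00029 for EE-DE/C-C and -0.017 for the difference between the changes with DE. The receptor counts went from 0 to 1 in the 3 comparisons of EE-DE without the second EE-DE array, to 2 at most with the looser signal flag and to 4 at most with no signal filter. Those of the other precursors went to 1 at most with the looser flag or with no outlier filter and to 6 at most with no signal filter. With each array left out in turn, an alternative chosen after seeing the data, the mucosa counts were 0 to 8 in all comparisons other than C-DE/C-C and EE-DE/C-DE (8 to 9). No paired analysis was possible because each result is a difference between pools with no test; with the array number as a replicate block the count in C-DE/C-C is 1 by construction and no value moves. The signal over background limits Avp, above background on 6 of 8 arrays, and technical duplicates limit every comparison.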

Other observations

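Among the probes of the gene and marker lists, 4 read over 2 log2 units higher on 1 array than on every other array, a gap chosen after the values were seen, and none of the 4 passed the filters. Pyy, peptide YY, was at -1.53 on the first EE-C array and at -4.49 or lower on the other 7. Ppy, pancreatic polypeptide, was at -2.15 on the first C-DE array, the only array on which it was well above background, and at -6.58 or lower elsewhere. A probe of Npy4r, named Ppyr1 in the scanner files, the receptor of pancreatic polypeptide, was at 2.07 on the same C-DE array and at -3.37 or lower on the others, and its spot carried an outlier flag. The fourth was a probe of the keratin gene Krt8, at -0.07 on the second EE-C array and at -4.16 or lower on the others. Each of these readings was absent from the duplicate array of the same RNA pool.

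The pituitary gene Prl, prolactin, was above background on all arrays and read -2.84 and -2.11 in C-C, -2.82 and -2.59 in C-DE, -3.09 and -5.65 in EE-C, and -3.32 and -4.32 in EE-DE. Its EE-C duplicates lay further apart than those of Oxt in C-C, and without the second EE-C array its difference in EE-C/C-C went from -1.89 to -0.61. All 4 arrays of standard cages were above all 4 arrays of enrichment, the closest being -2.84 in C-C and -3.09 in EE-C. The share of all probes tested that separated in this way was not computed. Rearing and slide column cannot be told apart here either. Pou1f1, also a pituitary gene, went the other way. It was past 1.5-fold higher in EE-DE/C-DE (0.67) and EE-DE/C-C (0.61), calls that were lost with 1 array left out.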
